A study of Mus musculus with 10 samples.

Results

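The genes described here are the 4 Hox genes of group 13 (Hoxa13, Hoxb13, Hoxc13 and Hoxd13) and the 2 Evx genes (Evx1 and Evx2), 6 of the 24500 gene symbols in the count tables. They were chosen by name, as the genes at the posterior ends of the 4 Hox clusters, and the rule uses no measured value, although earlier results of these data were known when it was set. ChIP-seq was carried out for H3K27me3 and for EZH2 in E14 mouse embryonic stem (ES) cells, strain label 12910la, that were either control cells (genotype label wild-type) or ex14D-Ezh2 cells. The mutant libraries are titled Ezh2KO, but their genotype label is a knock out of exon 14, and they are called ex14D here for that label. In the ex14D-Ezh2 cells exon 14 of Ezh2 carries a CRISPR-Cas9 in/del that shifts the reading frame. A working EZH2 can therefore come only from the splice form that skips this exon. The comparison asks how H3K27 methylation stands in such cells. By Western blot the paper also reports much less EZH2 protein in them than in control. The form and the amount of EZH2 thus differ together between the genotypes and cannot be told apart here. Each antibody was used on 2 libraries of each genotype, and each genotype had 1 input, which makes 10 libraries. All cells were E14 ES cells with no other treatment in the labels. The labels do not say whether the 2 ex14D libraries came from 1 clone, or whether the 2 libraries of a group were separate cultures, so the p-values below measure the spread between these libraries, which may be technical.

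Hox genes encode homeodomain transcription factors that give cells their position along the body axis, and they lie in the clusters in the order in which they act. Group 13 genes act at the posterior end: Hoxa13 and Hoxd13 pattern the hand and foot plates and the genital tubercle, Hoxb13 acts in the tail and the prostate, and Hoxc13 acts in hair follicles and nails. Evx1 and Evx2 are even-skipped type homeobox genes, used in spinal cord interneurons and, for Evx2, in the digits. Before the embryo needs them, such genes are kept silent by Polycomb repressive complex 2 (PRC2), whose subunit EZH2 puts 3 methyl groups on lysine 27 of histone H3 (H3K27me3).

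The members lie on 4 chromosomes of GRCm38 (mm10). Evx2 (chr2:74652991-74659557, minus strand) and Hoxd13 (chr2:74668225-74671603, plus strand) are neighbours that point away from each other, with 8.67 kb between their transcription start sites (TSS). Hoxa13 (chr6:52258853-52260880, minus strand) and Evx1 (chr6:52313498-52318378, plus strand) also point away from each other, with 52.6 kb between the TSS. Hoxb13 (chr11:96194316-96196610, plus strand) lies 77.0 kb from Hoxb9, the nearest other HoxB gene, while Hoxc13 (chr15:102921131-102928814, plus strand) lies 15.7 kb from Hoxc12.

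The promoters differ widely in base composition although all were covered by the mark. The reference promoter table held 4 of the members, and the 250 bases before the TSS of 3 of them are shown. These 3 span the range of the 4 in G+C, though not in CpG count, which was lowest at Evx1. They are Hoxa13, with the highest G+C and the most CpG dinucleotides, its counterpart Hoxd13, and Evx2, with the lowest G+C. Evx2 shares a peak with Hoxd13 and carried the highest H3K27me3 of the 6 in ex14D. The sequences are from RefSeq (GRCm38.p6), written 5′ to 3′ on the strand of the gene, with each CG in capitals. They are chr6:52260881-52261130 (minus strand) for Hoxa13, chr2:74667975-74668224 (plus strand) for Hoxd13 and chr2:74659558-74659807 (minus strand) for Evx2.

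Hoxa13: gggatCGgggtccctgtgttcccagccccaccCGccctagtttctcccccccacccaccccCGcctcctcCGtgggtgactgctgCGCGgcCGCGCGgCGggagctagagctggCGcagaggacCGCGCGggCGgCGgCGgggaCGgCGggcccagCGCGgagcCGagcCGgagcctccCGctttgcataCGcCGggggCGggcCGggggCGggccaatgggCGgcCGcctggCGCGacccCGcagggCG

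Hoxd13: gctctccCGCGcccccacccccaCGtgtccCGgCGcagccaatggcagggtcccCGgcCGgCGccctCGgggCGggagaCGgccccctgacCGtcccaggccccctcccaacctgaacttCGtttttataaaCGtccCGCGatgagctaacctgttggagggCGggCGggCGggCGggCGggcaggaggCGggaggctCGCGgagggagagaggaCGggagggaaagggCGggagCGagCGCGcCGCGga

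Evx2: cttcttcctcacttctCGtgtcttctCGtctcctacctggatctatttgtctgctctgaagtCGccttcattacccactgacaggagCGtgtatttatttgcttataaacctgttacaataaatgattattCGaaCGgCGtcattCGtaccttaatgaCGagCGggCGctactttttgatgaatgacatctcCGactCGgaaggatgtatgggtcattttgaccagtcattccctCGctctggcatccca

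CG reads the same on both strands and does not overlap itself. The Hoxa13 stretch held 35 CG and was 80% G+C, and 2.97% of the 32851 promoters of the same length in the table held at least as many CG. The Hoxd13 stretch held 31 CG at 74.4% G+C (5.19% of promoters at or above). The Evx2 stretch held 14 CG at 45.6% G+C (29.4% at or above) and the Evx1 stretch held 10 CG at 49.6% G+C (37.8% at or above), against a median of 6 CG and 52.4% G+C over all promoters. By CG count the Hox pair was thus CpG-dense and the Evx pair nearer to the middle of all promoters. CpG observed over expected, which allows for the C and G content, gave another order. It was 1.10 at Evx2, 0.90 at Hoxd13, 0.88 at Hoxa13 and 0.68 at Evx1. These 250 bases are only a part of the 1 kb window in which H3K27me3 was counted.

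H3K27me3 reads were counted by the authors in a 1 kb window centred on the 5′ most TSS, so levels can be compared between genes. They are given here as CPM, the count scaled by the number of reads on genes in the library. CPM is relative to the other promoters of the same library. No spike-in is described in the sources used here, so this scale says nothing of how much of the mark a cell holds in all. By Western blot the paper reports less H3K27me3 in ex14D-Ezh2 cells, and by ChIP-PCR less at genes that include Hoxa10 and Hoxd9. A higher value below is therefore relative, and does not show a gain of the mark in the cell. Reads on genes numbered 594289 and 937207 in the control and 1450937 and 1248018 in the ex14D H3K27me3 libraries, 409371 and 416778 in the inputs, and lay between 13628137 and 18403892 in the EZH2 libraries. The share of all counted reads that fell in promoter windows was 5.65% and 5.98% in control and 7.58% and 6.86% in ex14D H3K27me3 libraries. This difference moved with the genotype, and its part in the results was not tested. Over the 10 ES cell genes, which ES cells use and which should lack the mark, H3K27me3 was below input at 8 promoters in control (68.9% of all promoters tested were) and at 9 in ex14D (78.1% were), and Klf4 was above input in control, with a log2 fold change of 1.54. The 4 fibroblast feeder genes had a median of 0.78 over input in control and 0.09 in ex14D, on the log2 scale. Of the 6 promoters used in every cell 5 could be tested and all 5 were below input in both genotypes. H3K27me3 of ES cell genes could be tested between genotypes at 5 promoters, and of these Klf4 passed, where it fell by 0.88 on the log2 scale. Of the promoters used in every cell only Ppia could be tested in this way. It was called higher in ex14D (log2 fold change 2.16, edgeR adjusted p = 0.0401), at a low level of 2.13 to 11.2 CPM.

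All 6 members were covered by H3K27me3 in control ES cells. In the control libraries Evx2 had 693 and 562 CPM and Hoxd13 had 698 and 465 CPM, Hoxa13 had 506 and 399 CPM, Evx1 had 441 and 385 CPM, Hoxb13 had 367 and 443 CPM, and Hoxc13 had 362 and 327 CPM. The median promoter of these libraries had 11.8 and 11.7 CPM, and 99% of promoters lay under 496 and 427 CPM. By mean level the order in control was Evx2, Hoxd13, Hoxa13, Evx1, Hoxb13 and Hoxc13, but every pair of neighbours in this order overlapped between libraries except Hoxb13 and Hoxc13, where the lower Hoxb13 library was 367 CPM against 362 CPM in the higher Hoxc13 library. Evx2 ranked 65 and 66 among the 24500 promoters.

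The control input had 31.8 CPM at Hoxa13, 51.3 CPM at both Hoxb13 and Hoxc13, 63.5 CPM at Hoxd13, 41.5 CPM at Evx1 and 26.9 CPM at Evx2. The median promoter had 44.0 CPM in this input. Hoxa13, Evx1 and Evx2 lay below it, and Hoxb13, Hoxc13 and Hoxd13 above it, with 87.7% of promoters under Hoxd13. These values rest on few reads: 11 at Evx2 in the control input, for which the exact Poisson 95% interval was 5.49 to 19.7 reads, and 9 at Hoxa13 in the ex14D input, with an interval of 4.12 to 17.1 reads. The intervals cover counting error only.

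Fitted with edgeR's quasi-likelihood test against the pooled inputs, all 6 members were above input in control, with adjusted p from 3.36e-20 at Evx2 to 6.88e-14 at Hoxc13. The log2 fold changes over input were 4.07 at Hoxa13 (SE 0.28), 4.01 at Evx2 (SE 0.27), 3.61 at Hoxd13 (SE 0.27), 3.36 at Evx1 (SE 0.26), 2.93 at Hoxb13 (SE 0.25) and 2.62 at Hoxc13 (SE 0.26). Of the 20681 promoters tested 16% were called higher than input in control. The members' median was 3.49, against -1.63 over all promoters. In ex14D all 6 were again above input, where 12.8% of promoters were, with log2 fold changes of 5.56 at Evx2, 4.89 at Hoxa13, 4.61 at Hoxd13, 4.22 at Evx1, 4.05 at Hoxb13 and 2.49 at Hoxc13. Their median in ex14D was 4.42, against -2.15 over all promoters.

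Relative H3K27me3 rose in ex14D at 5 of the 6 members, by 2.40-fold to 4.01-fold after TMM normalization, and Hoxc13 did not pass the test. In the 2 ex14D libraries Evx2 had 1559.7 and 2115 CPM, where the control libraries had 693 and 562. These were ranks 16 and 12 of the 24500 promoters. Hoxd13, which shares its regulatory landscape with Evx2 in the digits, had 1049 and 1270.0 CPM against 698 and 465 in control. The lowest ex14D library was above the highest control library at both genes.

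Hoxb13 had 838 and 931 CPM in ex14D against 367 and 443 in control. Hoxa13 had 742 and 847 CPM against 506 and 399. Evx1 had 716 and 777 CPM against 441 and 385. For these 3 genes too, both ex14D libraries lay above both control libraries. Such a separation was seen at 9.1% of the 14883 promoters tested.

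At Hoxc13 the groups overlapped, with 334 and 293 CPM in ex14D against 362 and 327 in control. In ex14D it had the lowest H3K27me3 of the 6, and the ratio of its mean CPM in ex14D to that in control was 0.91, whereas the ratio at the others was 1.75 at Hoxa13, 1.81 at Evx1, 1.99 at Hoxd13, 2.19 at Hoxb13 and 2.93 at Evx2. Among the 41 Hox and Evx promoters Hoxc13 ranked 35 in control and 41 in ex14D by the mean log2 ratio to the input of the same genotype. The difference in response between Hoxc13 and the other members was not tested.

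**Figure D1:**
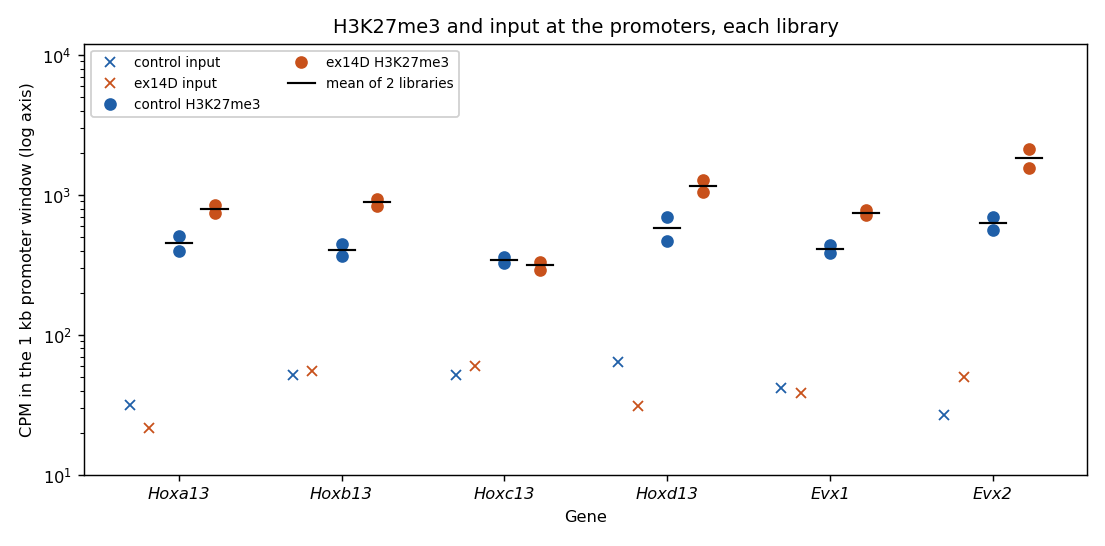
H3K27me3 (circles) and input (crosses) CPM in the 1 kb promoter window of each gene, on a log axis, with 1 symbol per library, control in blue and ex14D in orange, and a line at the mean of 2 libraries. The ex14D circles lie above the control circles at 5 genes, up to 2115 CPM at Evx2, and overlap with them at Hoxc13.

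The edgeR quasi-likelihood test with TMM normalization gave log2 fold changes, ex14D over control, of 2.00 at Evx2 (SE 0.22, adjusted p = 2.74e-06), 1.57 at Hoxb13 (SE 0.20, adjusted p = 8.31e-06) and 1.45 at Hoxd13 (SE 0.22, adjusted p = 5.26e-05). It gave 1.31 at Evx1 (SE 0.20, adjusted p = 5.63e-05) and 1.26 at Hoxa13 (SE 0.21, adjusted p = 1.19e-04). At Hoxc13 the log2 fold change was 0.32 (SE 0.20, adjusted p = 0.399). Of all promoters tested 5.85% were called higher, against 5 of 6 members, and 3.19% were called lower. The members' median log2 fold change was 1.38, against -0.02 over all promoters, and Evx2 ranked 33 from the highest of the 14883.

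The size of the folds depended on the scaling. With library size over gene rows and no TMM factor the median over all promoters was -0.47 in place of -0.02, and Hoxc13 turned to -0.13 (adjusted p = 0.683), but its distance from that median was 0.34 under both. On that scale 398 promoters were higher and 2130 lower, against 871 higher and 475 lower with TMM, 712 and 586 with DESeq2 size factors, and 618 and 581 with all counted reads as library size. The 5 calls held on each of these scales. Without control replicate 2, Hoxa13 (log2 fold change 1.05, adjusted p = 0.0552) and Hoxd13 (1.13, adjusted p = 0.0540) lost their calls, leaving 3.

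EZH2 moved the other way at the 4 members where it could be measured, in cells with less EZH2 protein by the paper's Western blot. The sources used here name only the promoter window for counting. EZH2 counts, however, followed gene length across genes (Spearman's rho 0.89 to 0.92 over the 4 libraries, against 0.15 to 0.16 in the H3K27me3 libraries), so they were taken as counts over whole genes, and levels between genes are given as CPM per kb of gene. Hoxa13 had 56.3 and 52.6 CPM per kb in control, with 39.5 and 25.8 left in ex14D. Evx2 had 34.1 and 34.7 CPM per kb in control, with 27.1 and 20.1 left in ex14D. Hoxd13 had 31.4 and 32.8 CPM per kb in control against 24.1 and 18.8 in ex14D, while Evx1 had 27.4 and 26.8 against 16.8 and 10.3. By this measure the order in control was Hoxa13, Evx2, Hoxd13 and Evx1, with no overlap between neighbours in it. The length used for Evx1 includes the stretch shared with Evx1os, an antisense gene, where reads were counted for neither gene. CPM per kb of Evx1 may therefore be too low, and its last place in the order is not settled. The median gene had 0.97 CPM per kb in both control libraries, over 13886 genes with a length, so all 4 stood far above it.

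Over the whole gene, the scale on which the test was made, Evx2 had 224 and 228 EZH2 CPM in control against 178 and 132 in ex14D. Evx1 had 134 and 131 CPM against 82.2 and 50.04. Hoxa13 had 114 and 107 CPM against 80.2 and 52.4, and Hoxd13 had 106 and 111 CPM against 81.3 and 63.4.

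At each of these genes both ex14D libraries lay below both control libraries, as they did at 18% of the 13401 genes tested. The control pair lay close together, and ex14D replicate 2 was the lower of its pair at all 4. The edgeR quasi-likelihood test gave log2 fold changes in EZH2 of -1.05 at Evx1 (SE 0.19, adjusted p = 0.0166), -0.78 at Hoxa13 (SE 0.17, adjusted p = 0.0320), -0.63 at Hoxd13 (SE 0.11, adjusted p = 0.0138) and -0.59 at Evx2 (SE 0.12, adjusted p = 0.0266). Of all genes tested 7.88% were called lower and 0.0522% higher, against 4 of the 4 members tested called lower, and the median was 0.02 over all genes and -0.71 over the members. Reads that fall on both Evx1 and the antisense gene Evx1os, which overlaps it, were counted for neither, and ambiguous reads made up 21.2% to 21.9% of the EZH2 libraries.

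The EZH2 calls rested on each control library. Without control replicate 1 or without control replicate 2, edgeR called no gene at all in either direction (1372 and 1300 genes were lower at an unadjusted p under 0.05), and the adjusted p of the members ran from 0.218 to 0.380, although their log2 fold changes kept to -1.06 to -0.57. Over all 4 libraries DESeq2 called 750 genes lower, all 4 members among them.

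**Figure D2:**
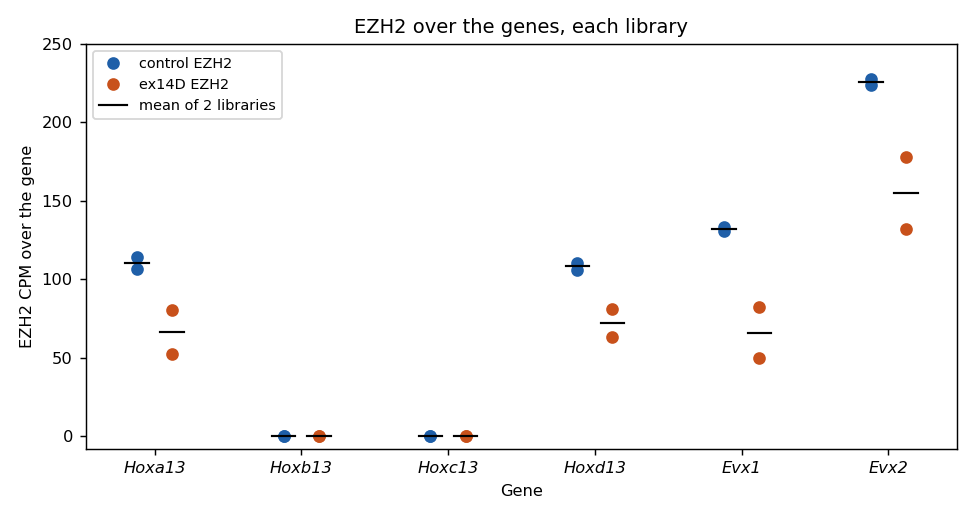
EZH2 CPM over the whole gene for each library, control in blue and ex14D in orange, with a line at the mean of 2 libraries. At Hoxa13, Hoxd13, Evx1 and Evx2 both ex14D points lie under both control points, while Hoxb13 and Hoxc13 are listed at 0 in all 4 libraries.

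Hoxb13 and Hoxc13 were listed at 0 EZH2 reads in all 4 libraries and could not be tested. This was not particular to them: 10575 of the 24500 symbols were at 0 in all 4 EZH2 libraries, among them 23 of the 39 Hox genes. Hoxb13 lay in an unbroken run of 1388 genes at 0 that spanned 66.2 Mb of chromosome 11 and took in all 10 HoxB genes. Hoxc13 lay in a run of 706 genes at 0 over 49.997 Mb of chromosome 15 with all 9 HoxC genes. A deposited EZH2 domain covered the TSS of both genes in all 4 libraries, so the count table and the domain lists differ there and no EZH2 level is given for them.

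**Figure D3:**
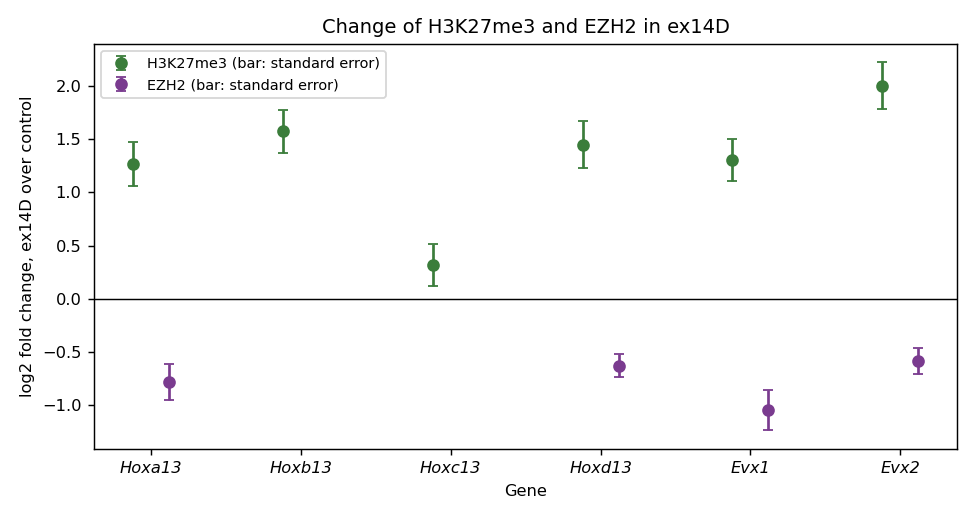
Log2 fold change, ex14D over control, of H3K27me3 in the promoter window (green, 6 genes) and of EZH2 over the gene (purple, 4 genes), with bars of 1 standard error from the edgeR fits. H3K27me3 values run from 0.32 at Hoxc13 to 2.00 at Evx2, and EZH2 values lie between -1.05 and -0.59.

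The peak lists give the extent of the mark around each gene. A broad H3K27me3 peak called by the authors with MACS2 in each library covered the TSS of every member in every library, 24 of 24 pairs of gene and library, and so did an EZH2 domain called with hiddenDomains. Of the 24368 genes with a position 12.1% had a peak and 9.5% a domain over the TSS in all 4 libraries. The Hoxa13 TSS lay near the outer end of a peak of 129 to 132 kb that took in 11 HoxA genes, and 16.9 to 17.3 kb of it lay upstream of the TSS. The Hoxc13 TSS lay near the outer end of a peak of 135 to 140 kb with 9 HoxC genes, the widest peak of both control libraries. In ex14D its rank by width was 3 and 2. The low H3K27me3 of Hoxc13 in ex14D was therefore measured inside one of the widest peaks.

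Hoxd13 and Evx2 lay in 1 peak in each library, 72.7 and 121 kb wide in control against 112 and 105 kb in ex14D. It reached over 7 and 9 HoxD genes in control and over 8 in both ex14D libraries. Its outer edge, on the side of Evx2, lay 12.8 and 13.3 kb downstream of the Evx2 TSS in control and 12.9 and 6.04 kb in ex14D. The fold enrichment that MACS2 gave this peak was 3.59 and 4.05 in control against 15.1 and 14.3 in ex14D. At the Hoxa13 peak it was 3.36 and 3.20 against 4.88 and 6.01, and at the Hoxc13 peak it was 4.21 and 3.38 against 5.75 and 6.08. Both ex14D values lay above both control values at these 3 peaks. The same held at 45.5% of the 2945 TSS that lay in a peak in all 4 libraries, so such a separation was common, and a fold enrichment averages over the peak rather than over a promoter.

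Evx1 and Hoxb13 had peaks of their own, apart from the Hox genes of their chromosome. The Evx1 peak was 22.6 and 37.0 kb wide in control, was 22.8 and 22.3 kb wide in ex14D, and held Evx1os besides Evx1. A gap of 24.7 and 9.79 kb in control and of 24.5 and 24.4 kb in ex14D separated it from the Hoxa13 peak. The EZH2 domains of the 2 genes were likewise separate, by 28 and 22 kb in control and 37 and 30 kb in ex14D. The Hoxb13 peak was 41.1 and 45.8 kb wide in control against 45.1 and 42.3 kb in ex14D, and Hoxb13 was its only Hox gene, beside Gm11538.

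MACS2 fold enrichment of the Evx1 peak was 3.05 and 3.96 in control against 4.39 and 3.62 in ex14D, so that the groups overlapped. That of the Hoxb13 peak was 4.26 and 4.07 against 4.71 and 5.94, with no overlap, as at the 45.5% of TSS given above. These peaks were narrower than those of the clusters, yet they were far wider than the median peak, which was 1.60 to 2.17 kb in the 4 libraries.

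EZH2 domains, whose borders fall on a grid of about 1 kb, followed the same layout. In control they were 127 and 129 kb wide at Hoxa13, 129 and 136 kb at Hoxc13, 62 and 118 kb at Hoxd13 and Evx2 together, 20 and 25 kb at Evx1 and 21 and 39 kb at Hoxb13. In ex14D they were 116 and 124 kb, 112 and 106 kb, 61 and 99 kb, 18 and 17 kb, and 17 and 38 kb in the same order. Both ex14D domains were narrower than both control domains at Hoxa13, Hoxc13 and Evx1, and the groups overlapped at Hoxb13 and at Hoxd13 with Evx2. Of the 2314 TSS in a domain in all 4 libraries 43.7% lay in domains that were narrower in this way, which is near the 3 of 6 members. The number of domains in the whole library also differed, with 7322 and 7704 in control against 5067 and 4122 in ex14D. No test was made on widths.

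**Figure D4:**
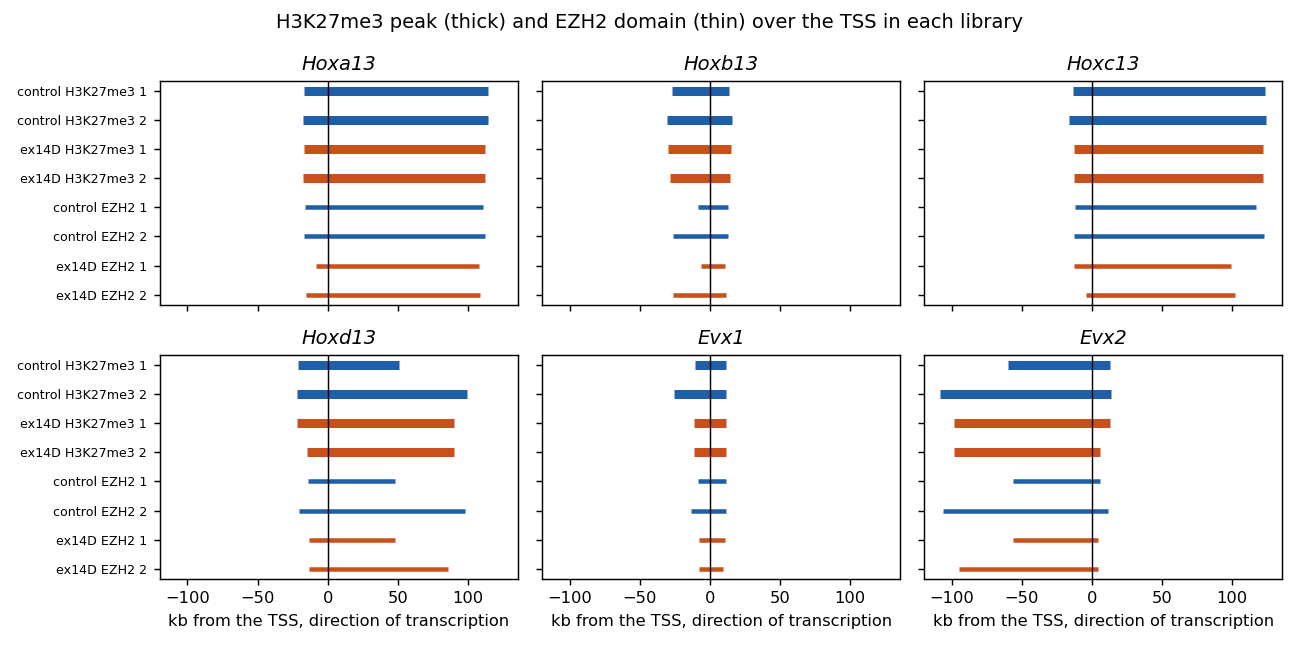
H3K27me3 peak (thick bars) and EZH2 domain (thin bars) over the TSS of each gene in each library, in kb from the TSS (vertical line) with the direction of transcription to the right, control in blue and ex14D in orange. The bars of Hoxa13 and Hoxc13 reach at least 98.9 kb downstream, those of Hoxd13 and Evx2 are 1 shared interval seen from either gene, and those of Evx1 and Hoxb13 are short.

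Within a shared peak the values varied from gene to gene. Hoxa11, next to Hoxa13 and active in the forearm, had 221 to 800 CPM of H3K27me3 over the 4 libraries and a log2 fold change of 1.98 (edgeR adjusted p = 2.74e-06), against 1.26 at Hoxa13. Hottip, a noncoding gene 1.90 kb from the Hoxa13 TSS, had 538 to 1186 CPM and a log2 fold change of 1.41 (edgeR adjusted p = 2.85e-05). Hoxc12 had 605 to 1836 CPM and rose by 1.70 (edgeR adjusted p = 7.25e-06), while Hoxc13 in the same peak gave 0.32. At the other end of that peak Hoxc4 had 236 to 309 CPM and a log2 fold change of 0.60 (edgeR adjusted p = 0.0627). Of the 2 Hox genes at the ends of the HoxC cluster neither passed the test.

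In the Hoxd13 peak, Hoxd12 had 540 to 1102 CPM and a log2 fold change of 1.31 (edgeR adjusted p = 6.04e-05), against 1.45 at Hoxd13 and 2.00 at Evx2. Evx1os, whose TSS lies 1.33 kb from that of Evx1, had 372 to 606 CPM and a log2 fold change of 0.98 (edgeR adjusted p = 0.00142), against 1.31 at Evx1. Gm11538, 9.14 kb from Hoxb13, had 362 to 457 CPM and a log2 fold change of 0.76 (edgeR adjusted p = 0.0121), against 1.57 at Hoxb13. Differences between a member and its neighbour were not tested. Of the 67 genes with a TSS within 200 kb of a member 64 could be tested. Of these, 50 were called higher in ex14D, against 5.85% of all promoters tested. The called genes ran from 0.72 at Gm53 to 2.09 at Hoxb3, and the median of the 64 was 1.44. All 35 Hox genes of the next list are among the 67, and 33 of the 50 called are Hox genes of that list.

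Of the 35 other Hox genes, groups 1 to 12 of the same clusters, 33 had higher relative H3K27me3 in ex14D, against 5.85% of all promoters tested. Log2 fold changes of these 33 ran from 1.04 at Hoxb1 to 2.09 at Hoxb3. The median was 1.62 over the 35, against 1.38 over the members and -0.02 over all promoters. Hoxa10 (1.62) and Hoxd9 (1.82) are among the 33, while the paper's ChIP-PCR found less H3K27me3 at both in ex14D. Hoxc4 and Hoxd1 (log2 fold change 0.61, edgeR adjusted p = 0.340) did not pass. For EZH2 14 of the 35 could be tested and 11 were lower, against 7.88% of all genes tested. The 11 ran from -1.20 at Hoxd1 to -0.47 at Hoxa10. The median of the 14 was -0.62, against -0.71 over the 4 members tested. The called members thus moved in the same directions as the called genes of their clusters. By the mean log2 ratio to input Evx2 ranked 1 of the 41 Hox and Evx promoters in control and 6 in ex14D, Hoxa13 ranked 6 and 7, Hoxd13 26 and 5, Evx1 20 and 28, and Hoxb13 30 and 32. Among the 6 members Hoxd13 moved most in this order, and its input was 63.5 CPM in control and 31.2 CPM in ex14D, which moved with the rank. The Evx2 input, 26.9 CPM in control and 50.4 CPM in ex14D, moved with the Evx2 rank too. Against the pooled inputs the edgeR log2 fold change of Evx2 was 4.01 in control, under 4.47 at Hoxb9. In ex14D it was 5.56, beside 5.55 at Hoxb9.

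A further list held genes that work with or around the members in the tail bud, the limb bud and the genital tubercle. Of these 16 genes 7 were called higher in relative H3K27me3 in ex14D, against 5.85% of all promoters tested. The 7 ran from 0.82 at Wnt3a, a signal that keeps the tail bud growing, to 1.48 at Wnt5a, a signal of limb and tail outgrowth. The other genes of the list did not pass, and some of them lay below 0. The median of the list was 0.72, against -0.02 over all promoters. For EZH2 10 could be tested and 8 were called lower, against 7.88% of all genes tested. The 8 ran from -1.20 at Bmp4, a signal in limb and ventral patterning, to -0.29 at Epha7, a receptor of the distal limb whose gene is a known target of Hoxa13 and Hoxd13. The median of this list in EZH2 was -0.83, against 0.02 over all genes. The difference between the lists was not tested.

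The promoters with the H3K27me3 and input pattern most like each member, by the root mean square difference of log2(CPM + 1) over 6 libraries and among 24494 other promoters, were not Hox genes. Only 35 of these 24494 are Hox genes, so this says little about how the members compare with their clusters. The most similar were Car10 (0.06) and Fat4 (0.09) for Evx1, Homer2 (0.11) and Fbn1 (0.11) for Hoxc13, and Gsx2 (0.13) and Neurog2 (0.14) for Hoxd13. For Evx2 they were Kcnk9 (0.16) and Sim2 (0.25), for Hoxb13 Isl2 (0.17) and LOC102634401 (0.18), and for Hoxa13 Nkx2-2 (0.22) and Trank1 (0.27). A difference of 0 would be an identical pattern, and the input values, which rest on few reads, enter it with the same weight as the H3K27me3 values.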

How the data were processed

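H3K27me3, EZH2 and input libraries of control and ex14D-Ezh2 E14 ES cells were analysed. The authors aligned reads to mm10 with Bowtie (Bowtie2 in the submitters' processing notes, which also name Trimmomatic) and deposited read counts per gene symbol from htseq-count: in a 1 kb window centred on the 5′ most TSS for H3K27me3 and input, while the EZH2 counts, for which the sources used here name no other window, were taken as counts over whole genes because they follow gene length. Rows naming no gene were left out of library sizes; reads on no gene were 92.0% to 94.0% of H3K27me3, 97.9% to 98.0% of input and 33.8% to 34.9% of EZH2 reads. The deposited H3K27me3 peak lists, made per library with MACS2, hold a score (not used), a fold enrichment (ratio) and −log10 p and q values; the control used for them is not given in the sources used here. The deposited EZH2 domains (hiddenDomains, per library) hold positions and no other value. The deposited H3K27me3 domains were not used, since their positions run past the ends of mm10 chromosomes.

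CPM was computed over gene rows. Genotypes were compared within each antibody with edgeR 4.0.16 (quasi-likelihood test, TMM, filterByExpr, R 4.3.3), and H3K27me3 with the 2 inputs pooled as 1 group, with library size over gene rows. p-values were adjusted over all features tested (Benjamini-Hochberg, threshold 0.05). SE is the log2 fold change divided by the root of F, an approximation. The log2 ratio to input had a pseudocount of 1 CPM. Replicate pairs differed by more than sampling noise (chi-square per degree of freedom 1.49 to 4.01). All 6 members passed the filter for H3K27me3 and 4 for EZH2. Alternatives were other scalings, DESeq2 1.42.0, no filter, libraries left out, a replicate block, pseudocounts, and peak rules. On simulated counts the H3K27me3 fit (13652 genes) recovered 56% of 2-fold and 97% of 4-fold changes, and the EZH2 fit (13323 genes) 98% and 100%. The simulation gave both genotypes 1 common dispersion, whereas the EZH2 pairs differed in spread (1.49 in control, 4.01 in ex14D). These shares may therefore not hold for the real libraries. Genes were placed with RefSeq on GRCm38.p6 (24368 of 24500 symbols). Named genes are the members, neighbours in a member's peak, and the 2 promoters most like each member. The lowest and highest gene called between genotypes are named for the other Hox and the limb lists and, for H3K27me3, among neighbours. Hoxc4 and Hoxd1 are named as the exceptions of their list, and Klf4 and Ppia as the markers called between genotypes for H3K27me3. The members and lists were chosen with earlier results of these data known.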

Additional observations from a re-analysis of the deposited data

How the results depend on the processing

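H3K27me3 at the members kept its direction under every alternative tried except that Hoxc13 turned to -0.13 with library size only. The number of members called higher ran from 3 to 5 when 1 library was left out, with 3 without control replicate 2, and was 5 under every other alternative. The number of members with lower EZH2 ran from 0 to 4, with 0 without either control library and 4 under every other alternative. EZH2 log2 fold changes of the members ran from -1.47 to -0.84 without ex14D replicate 1 and from -0.72 to -0.38 without ex14D replicate 2, and the cause was not tested. The 6 calls over input in each genotype held under all alternatives, with 5968 promoters higher in control and 4926 in ex14D under TMM and 4334 in ex14D with DESeq2, whose size factors, like TMM, centre the typical promoter near 0. A pseudocount of 5 CPM moved the ex14D log2 ratio to input from 5.13 to 4.91 at Hoxa13 and from 4.25 to 4.11 at Evx1. Of all promoters DESeq2 called 264 lower and 676 higher, and leaving out a library left 73 to 610 lower and 255 to 797 higher. Of all genes, EZH2 was called higher at 2 to 47 under the other scalings, at 3 under the replicate block, at 0 to 81 when a library was left out (186 to 549 by unadjusted p) and at 0 by DESeq2 (7 by unadjusted p).

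In the counts, libraries with the same replicate number did not deviate together (correlation -0.10 over 14883 promoters for H3K27me3 and -0.03 over 13401 genes for EZH2). Such a correlation cannot tell whether they shared a processing step, and the labels do not say. EZH2 domains did follow the number: the median width was 2 kb in replicate 1 and 3 kb in replicate 2 of both genotypes. With a replicate block 5 members were called for H3K27me3 (log2 fold changes 0.31 to 1.99) and 4 for EZH2 (adjusted p from 0.0269 to 0.0450), and 755 promoters were higher and 406 lower. With the numbers crossed, an alternative chosen after seeing the data, 5 members were called and 1185 promoters were higher and 795 lower. Depth limits the inputs most, with 9 to 26 reads at the members.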
